A study of Mus musculus with 5 samples.

Results

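The transcripts of 9 genes that encode the NF-kB transcription factor and its inhibitors were followed in MutuDC cells, a dendritic cell line of mouse origin, during exposure to Fanchinoline (spelled as in the labels). The 9 genes were taken by symbol from a table of 53700 genes: the subunits Nfkb1, Nfkb2, Rel, Rela and Relb, the I-kappa-B inhibitors Nfkbia, Nfkbib and Nfkbie, and Tnfaip3, an inhibitor that acts upstream of them. Each had 1 entry in the table. Cells were sampled after 2, 6, 12 and 24 h with the compound, and once as a vehicle control, which counts as 0 h. All 5 groups were the same cell line, with 1 library each, so no difference below has a replicate check. The design text speaks of untreated control cells and of triplicates, whereas the labels name a vehicle and the table holds 1 column per time. The sources used here give neither the dose nor whether the line is 1 clone. The vehicle was sampled once only, so hours in culture and hours with the compound cannot be told apart.

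NF-kB is a family of dimeric transcription factors that switch on inflammatory, survival and maturation genes. In resting cells the I-kappa-B proteins hold the dimers in the cytoplasm; signals from toll-like receptors or cytokine receptors activate a kinase complex that marks these inhibitors for destruction, and the freed dimers enter the nucleus. RelA with the Nfkb1 product forms the main dimer of this canonical route. RelB with the Nfkb2 product forms that of a slower, noncanonical route, and c-Rel, encoded by Rel, is prominent in lymphoid and dendritic cells. Several family genes are themselves NF-kB targets, which makes the pathway limit and reshape itself, and in dendritic cells it accompanies maturation and cytokine production.

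Total counts were between 33568526 and 42854511 per library. All 12 markers fixed for conventional dendritic cells of the cDC1 kind reached 1 CPM in some library (CPM, the usual count scaled to library size), and their summed level was 5628 to 7566 CPM, with 5628 CPM at 24 h against 6662 CPM in vehicle. Cd3e, Cd3d and Trac, markers of T cells, had 0 counts in each library, which allows up to 3 counts, or 0.0703 to 0.0915 CPM. B cell and fibroblast markers stayed under 1 CPM, and of the plasmacytoid and epithelial ones Tcf4 and Epcam alone passed it. Of the macrophage or monocyte markers Cd68, Itgam, Csf1r and Cd14 were detected and Adgre1, Fcgr1 and Ly6c2 stayed under 1 CPM, with the list summing to 342 to 439 CPM, 439 CPM at 24 h against 378 CPM in vehicle. The part of these shifts in the members' ratios was not tested. Long and short transcripts stood differently in the treated libraries than in the vehicle library. The median log2 ratio over vehicle of the longest 20% of genes exceeded that of the shortest 20% by 0.57, 0.65, 0.69 and 0.75 at 2, 6, 12 and 24 h, against 0.04 to 0.16 between treated libraries. Log2 ratios over vehicle were therefore also computed after removal of a smooth dependence on transcript length and GC content, called adjusted ratios.

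Stretches upstream of start sites are shown for 4 members because the levels of these 4 differed in different ways, and because self-regulation by NF-kB acts through DNA elements named kappaB sites. The sequences are RefSeq's on build GRCm38.p6, 5′ to 3′ on the gene's strand, and cover the 130 bases before an annotated start. Capitals mark matches to the kappaB consensus, searched on both strands, with overlapping matches merged.
Rel, chr11:23770970-23771099, minus strand: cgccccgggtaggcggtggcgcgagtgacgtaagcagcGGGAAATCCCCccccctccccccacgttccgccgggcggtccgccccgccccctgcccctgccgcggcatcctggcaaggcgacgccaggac
Nfkb2, chr19:46304607-46304736, plus strand: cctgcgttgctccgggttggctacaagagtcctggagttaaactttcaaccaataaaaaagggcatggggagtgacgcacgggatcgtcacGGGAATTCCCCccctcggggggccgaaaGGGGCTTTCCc
Nfkbia, chr12:55492648-55492777, minus strand: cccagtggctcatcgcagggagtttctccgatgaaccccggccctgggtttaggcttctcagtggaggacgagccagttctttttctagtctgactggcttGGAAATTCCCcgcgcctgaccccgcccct
Nfkbib, chr7:28766645-28766774, minus strand: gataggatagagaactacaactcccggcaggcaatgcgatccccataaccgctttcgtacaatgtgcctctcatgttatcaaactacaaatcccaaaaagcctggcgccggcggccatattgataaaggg

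Rel had 1 such place, Nfkb2 had 2 in the window shown, Nfkbia had 1, and these letters were not found in the Nfkbib window. The annotated Nfkbib gene extends on its 5′ side past this window, to position 28767512. The stretch before that outer end was not searched. Over windows of 250 bases before and 50 after the start, 7 of the 9 members were in the RefSeq table and 5 of these 7 held at least 1 match, the others being Tnfaip3 with 2 places and Nfkbie with 1. Counted by window, 7 of the members' 10 windows held a match, 3 of them of Nfkb2, against 8.46% of all 32851 such windows. Of the 3 Nfkb2 windows, 2 overlap and share 1 site, which is counted in both and is the only match in the later window. Nfkb1 and Relb were not in the table. A match describes the letters and not a bound site.

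Levels between genes are given per length, as length-scaled CPM (TPM) computed with the longest annotated transcript of each gene. Nfkbia was the most abundant member, with a median of 205 TPM over the 5 libraries (185.7 to 236 TPM). Nfkb1 followed with a median of 130 TPM (104 to 138 TPM) and Rela with 117 TPM (106 to 117 TPM), and the ranges of these neighbours overlapped. Nfkb2 (median 53.6 TPM) and Nfkbib (52.1 TPM) also overlapped. Nfkbie had a median of 33.0 TPM and overlapped with neither neighbour. The least abundant members were Relb (15.1 TPM), Rel (8.11 TPM) and Tnfaip3 (3.96 TPM), each overlapping with the next in this order. With the length of all exons together in place of the longest transcript, Nfkb1 had a median of 59.6 TPM, stood below Rela and Nfkbib and was level with Nfkb2.

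**Figure D1:**
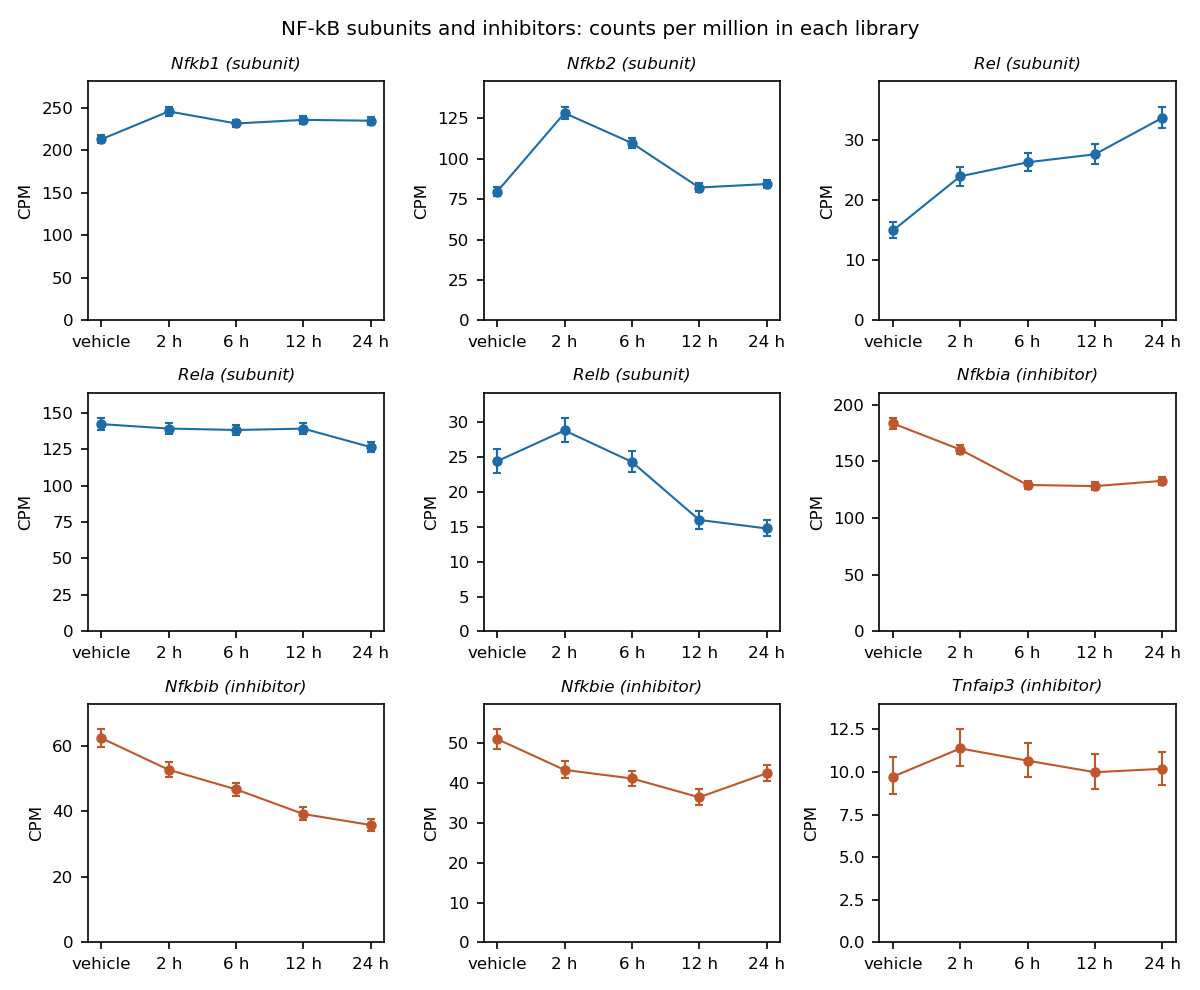
CPM (vertical axes, from 0) of the 9 members in each of the 5 libraries, ordered along evenly spaced positions as vehicle, 2, 6, 12 and 24 h; bars are 95% exact Poisson intervals and cover counting error only. Rel is lowest in vehicle and highest at 24 h, Nfkb2 peaks at 2 h, and Relb, Nfkbib, Nfkbia and Nfkbie are lower at 12 h than in vehicle.

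Rel, which encodes c-Rel, was the only member past the threshold for a call, and only at 24 h. Its level was 15.0 CPM in vehicle, 24.0 CPM at 2 h, 26.3 CPM at 6 h, 27.7 CPM at 12 h and 33.7 CPM at 24 h, from 491 to 1440 counts. Each treated library stood above the vehicle library. The threshold was a log2 ratio of 1 or more in either direction, with a 95% exact interval, of counting error alone, that excluded 0. At 24 h the log2 ratio of Rel over vehicle was 1.17 (interval 1.02 to 1.32), or 2.25-fold, and at 2, 6 and 12 h it was 0.68, 0.81 and 0.88 (adjusted 0.48, 0.55 and 0.54). Over vehicle 0 of 9 members were called at 2, 6 and 12 h, where 1.33%, 1.94% and 3.07% of the 8846 compared genes were, and 1 of 9 at 24 h, where 4.09% of all compared genes were called and 2.86% were called higher. With the adjustment, 0 of 9 were called at any of these times, against 0.702%, 1.02%, 1.9% and 2.64% of genes. These 4 comparisons share the vehicle library. The adjusted log2 ratio of Rel at 24 h was 0.75 (0.61 to 0.91), which is below the threshold. Its longest transcript, 7466 bases, was the longest of the 9, and its GC content, 42.5%, was the lowest. Between treated libraries, where the length balance was close, Rel was at 33.7 CPM at 24 h against 24.0 CPM at 2 h, a log2 ratio of 0.49 (0.37 to 0.61; adjusted 0.27), with no call.

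Rela, the main activating subunit, was close to level. It stood at 142 CPM in vehicle and at 139, 138, 139 and 126 CPM at 2, 6, 12 and 24 h. Its log2 ratios over vehicle lay between -0.17 and -0.03, and the intervals at 2, 6 and 12 h included 0. At 24 h the interval was -0.23 to -0.11, and the adjusted ratio was 0.00 (-0.05 to 0.06). The adjusted ratios at 2, 6 and 12 h were -0.09, -0.07 and 0.07, with intervals that excluded 0. The sign at 12 h thus turns with the adjustment. Nfkb1, whose product is both a DNA-binding partner of RelA and, as a precursor, an inhibitor, was at 213 CPM in vehicle and at 246, 231, 236 and 235 CPM at 2, 6, 12 and 24 h. All 4 treated libraries were above vehicle, by log2 ratios of 0.12 to 0.21, or of 0.11 to 0.24 when adjusted.

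Nfkb2 and Relb, the genes of the noncanonical dimer, were both highest at 2 h and lower at the later times. Nfkb2 was at 79.7 CPM in vehicle, 128 CPM at 2 h, 110 CPM at 6 h, 82.2 CPM at 12 h and 84.4 CPM at 24 h. Its log2 ratio over vehicle was 0.69 (0.62 to 0.76; adjusted 0.48) at 2 h and 0.46 (0.39 to 0.53; adjusted 0.28) at 6 h. At 12 h it was 0.04, with an interval that included 0, and at 24 h 0.08 (0.01 to 0.16). Relb was at 24.4 CPM in vehicle, 28.8 CPM at 2 h, 24.3 CPM at 6 h, 16.0 CPM at 12 h and 14.8 CPM at 24 h. Its log2 ratio over vehicle was 0.24 (0.11 to 0.37) at 2 h, or 0.12 when adjusted with an interval that included 0, -0.61 (adjusted -0.62) at 12 h and -0.72 (-0.88 to -0.57; adjusted -0.68) at 24 h. Nfkb2 thus stood near its vehicle level at 12 and 24 h, while Relb stood below it.

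Between treated libraries, Relb had the lowest ratio of the 9 at 24 h over 2 h and at 12 h over 6 h, but not in the other comparisons. Its log2 ratio at 24 h over 2 h was -0.96 (-1.11 to -0.82), just short of the threshold, or -0.81 when adjusted, and 0.791% of compared genes had a lower one. For Nfkb2 the same ratio was -0.60 (-0.67 to -0.54), or -0.41 adjusted. Most of this lay between 6 and 12 h, where the log2 ratio of 12 h over 6 h was -0.60 for Relb and -0.42 for Nfkb2, against a median of -0.01 over all compared genes. The ratio of Relb to Nfkb2 in TPM was 0.360 in vehicle and 0.264, 0.260, 0.228 and 0.205 at 2, 6, 12 and 24 h. In none of the comparisons between treated libraries was a member called, where 0.328%, 0.305%, 0.147% and 1.55% of all genes were at 6 h over 2 h, 12 h over 6 h, 24 h over 12 h and 24 h over 2 h. Nfkb2 shares 299 exon bases with Psd and 531 with AC114539.1 on the opposite strand, and the libraries do not mark strand. Psd itself reached at most 14.9 CPM. AC114539.1, the larger overlap, has no entry among the counted genes, so its level is unknown.

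The 3 I-kappa-B genes stood below vehicle in every treated library. Nfkbia, the fast feedback inhibitor, was at 183 CPM in vehicle, 160 CPM at 2 h, 129 CPM at 6 h, 128 CPM at 12 h and 133 CPM at 24 h. Its log2 ratio over vehicle was -0.19 (adjusted -0.02, interval including 0) at 2 h, -0.51 (adjusted -0.30) at 6 h, -0.52 (adjusted -0.28) at 12 h and -0.47 (adjusted -0.20) at 24 h. Its longest transcript, 1578 bases, was the shortest of the 9.

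Nfkbib, which encodes the more stable I-kappa-B beta, was at 62.4 CPM in vehicle, 52.7 CPM at 2 h, 46.7 CPM at 6 h, 39.2 CPM at 12 h and 35.8 CPM at 24 h. Its values thus ran down from each time to the next. At 24 h its log2 ratio over vehicle was -0.80 (-0.90 to -0.70), or 0.575-fold, and the adjusted ratio was -0.54 (-0.63 to -0.44). At 24 h over 2 h it was -0.56 (adjusted -0.36). Nfkbib shares 314 exon bases with Ccer2 and 42 with Sirt2 on the opposite strand; Ccer2 reached at most 0.122 CPM and Sirt2 at most 83.8 CPM, which is above Nfkbib itself. Nfkbie, which encodes I-kappa-B epsilon, was at 51.1 CPM in vehicle and at 43.3, 41.2, 36.4 and 42.5 CPM at 2, 6, 12 and 24 h. Its lowest log2 ratio over vehicle was -0.49 (-0.59 to -0.38; adjusted -0.47) at 12 h, and at 24 h it was -0.27 (adjusted -0.22).

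As counted, Tnfaip3, a ubiquitin-editing enzyme that shuts off signals upstream of the I-kappa-B kinases, did not follow the I-kappa-B genes. It was at 9.73 CPM in vehicle and at 11.4, 10.7, 9.99 and 10.2 CPM at 2, 6, 12 and 24 h, so that it met the minimum of 10 CPM only through the 2, 6 and 24 h libraries. The log2 ratio over vehicle was 0.23 (0.01 to 0.44) at 2 h, and the intervals at 6, 12 and 24 h included 0. The adjusted ratios were -0.04 to -0.28, and those at 12 and 24 h had intervals below 0. The direction for Tnfaip3 therefore turns with the adjustment. When adjusted, it stood below vehicle at 12 and 24 h, as the I-kappa-B genes did.

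**Figure D2:**
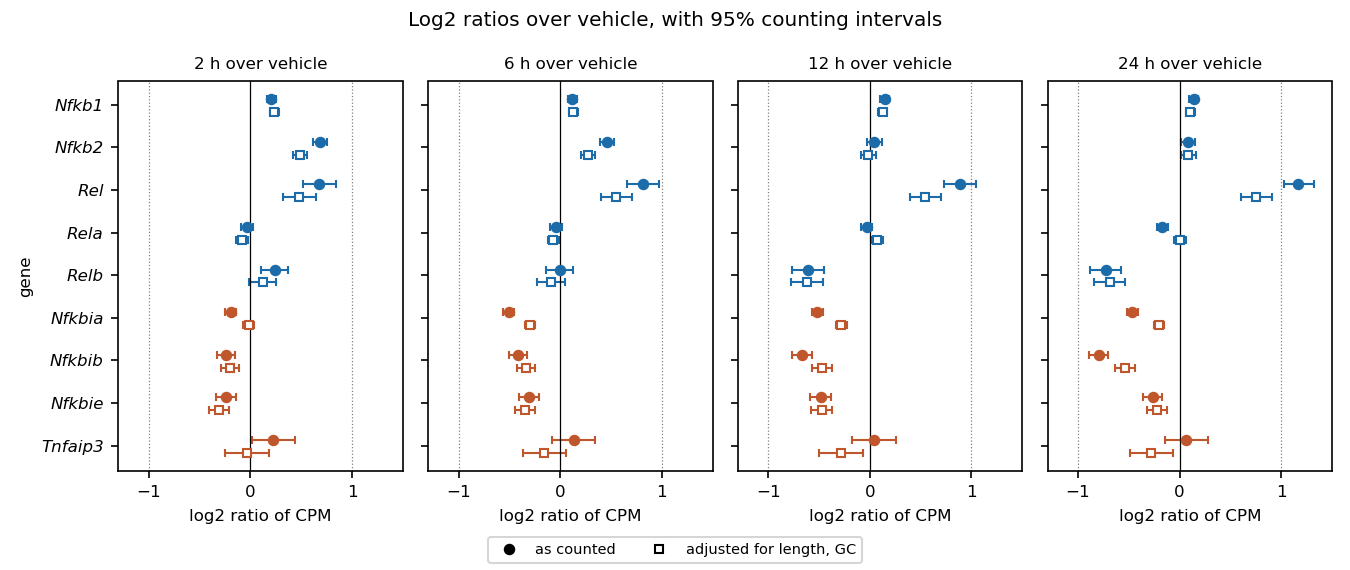
Log2 ratios of CPM over vehicle (horizontal axes) for the 9 members (vertical axis) at 2, 6, 12 and 24 h; filled points are ratios as counted, open squares ratios adjusted for transcript length and GC content, bars 95% exact intervals of counting error, and dotted lines the threshold of 1 in size. Rel at 24 h as counted, at 1.17, is the only point past a dotted line; subunits are blue and inhibitors orange.

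The 4 inhibitors had a median log2 ratio over vehicle of -0.22, -0.36, -0.50 and -0.37 at 2, 6, 12 and 24 h, where the 5 subunits had 0.24, 0.12, 0.04 and 0.08 and all compared genes 0.03, 0.04, 0.02 and 0.00. The adjusted medians of the inhibitors were -0.12, -0.32, -0.38 and -0.25. Summed per length, the 3 I-kappa-B genes had 332 TPM in vehicle and 324, 272, 257 and 282 TPM at 2, 6, 12 and 24 h. The subunits together had 272 TPM in vehicle and 357, 336, 316 and 327 TPM at these times. Differences of these sums between libraries include the TPM scale, which differs from that of CPM. At 2 h against vehicle, Nfkb1 was at 246 against 213 CPM but at 136 against 104 TPM. Nfkbia was at 160 against 183 CPM but at 232 against 236 TPM. The ratio of the sums within a library does not depend on that scale. The ratio of I-kappa-B to subunit transcripts was thus 1.22 in vehicle and 0.909, 0.809, 0.814 and 0.863 at 2, 6, 12 and 24 h. With vehicle levels multiplied by the adjusted ratios instead, it was 1.03, 0.934, 0.930 and 0.991 at these 4 times, so that the gap to vehicle was smaller but ran the same way. With the length of all exons together it was 1.78 in vehicle and 1.32, 1.18, 1.21 and 1.29 at these times, so that whether the ratio lies under 1 depends on the length used. Among the subunits, Rel made up 3.37% of the summed TPM at 24 h and 1.499% in vehicle, and Relb 3.36% at 24 h and 5.57% in vehicle. Nfkb2 made up 21.4% at 2 h and 15.5% in vehicle. Rela and Nfkb1 together were the bulk of the sum in each library.

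**Figure D3:**
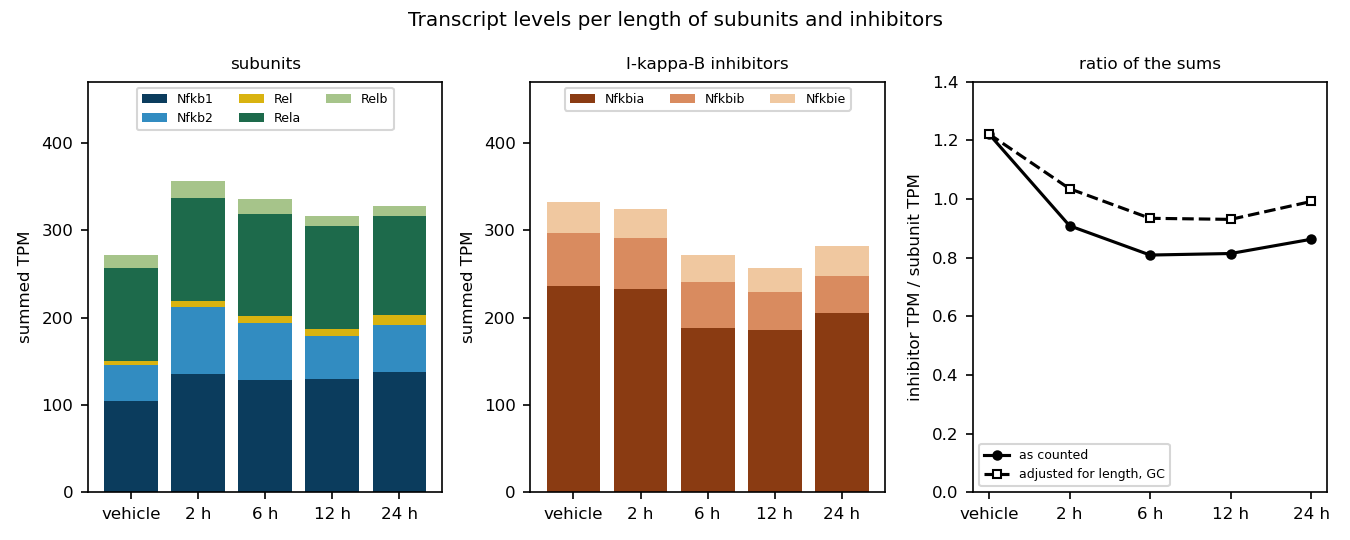
Summed TPM of the 5 subunits (left) and the 3 I-kappa-B inhibitors (middle), stacked by gene, and the ratio of the sums (right; all axes from 0), in the vehicle, 2, 6, 12 and 24 h libraries. TPM leaves out the TMM factors of CPM, so differences of the summed bars between libraries include that scale. The ratio is 0.809 to 0.909 in the treated libraries as counted (filled), or 0.930 to 1.03 with the adjusted ratios (open), and 1.22 in vehicle.

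Transcript length moved with the ratios over vehicle across all genes, and the members' longest transcripts ran from 1578 bases (Nfkbia) to 7466 bases (Rel). The adjusted ratios at 24 h, which remove the length and GC dependence together, were 0.75 for Rel, -0.68 for Relb and -0.54 for Nfkbib. Those of Rela, Nfkb1 and Nfkb2 were 0.00, 0.11 and 0.09. Nfkbia, Nfkbie and Tnfaip3 had -0.20, -0.22 and -0.28, with upper interval ends of -0.15, -0.12 and -0.07. The mitochondrially encoded share of counts, a sign of library make-up, was 1.47% to 1.78% with the compound and 2.58% in vehicle. Its part in the members' ratios was not tested.

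**Figure D4:**
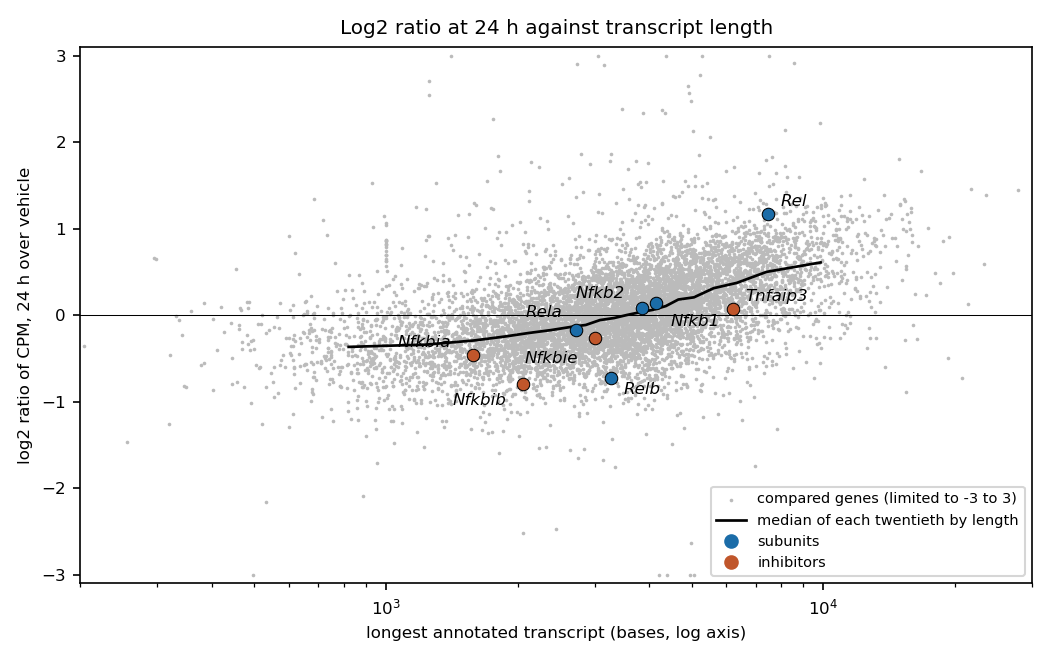
Log2 ratio of CPM at 24 h over vehicle (vertical axis; grey genes limited to -3 to 3) against the length of the longest annotated transcript (horizontal log axis) for the compared genes, with the median of successive length groups as a line; subunits are blue and inhibitors orange. Rel, at 1.17, lies above the line, and Relb (-0.72) and Nfkbib (-0.80) lie below it.

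A slope over time was tested across the 5 libraries with edgeR's quasi-likelihood test on log2(hours + 1), with vehicle at 0 h. Its error comes from how far single libraries lie from the fitted line, since there are no replicates. The length and GC adjustment was not applied in this test. The vehicle library, whose length balance differed from that of the treated libraries, is its 0 h point. Of the 9 members 2 passed the Benjamini-Hochberg adjusted threshold of 0.05, where 9.41% of 13915 genes did, 5.35% rising and 4.05% falling. Rel rose, with a slope of 0.23 log2 units per unit of log2(hours + 1) and an adjusted p of 0.0234. Nfkbib fell, with a slope of -0.18 and an adjusted p of 0.0202. Nfkbia had a slope of -0.11 (adjusted p = 0.0580) and Relb one of -0.19 (adjusted p = 0.0854), and the other 5 members had adjusted p of 0.201 to 0.991 in this edgeR test. With DESeq2 Nfkbia and Relb passed as well (adjusted p of 0.0170 and 0.0193), in a test that 2351 of 11049 genes passed. The calls of Rel and Nfkbib were lost without the 12 h library (adjusted p = 0.119 for each in edgeR), without the 24 h library (0.0982 and 0.0860), on a scale of plain hours (0.167 and 0.125) and with no filter on low counts (0.0724 and 0.0688). Over these and the other alternatives the adjusted p was 2.5e-05 to 0.167 for Rel and 1.1e-05 to 0.125 for Nfkbib. Without the vehicle library Relb (slope -0.34, adjusted p = 0.00541 in edgeR) and Nfkb2 (slope -0.22, adjusted p = 0.00930) passed as well, both falling over 2 to 24 h, where 15.8% of genes passed.

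Genes whose 4 log2 ratios over vehicle were most like those of Rel, the member with the highest ratio at 24 h, were Mga, Niban2, Rictor and Ston2, with Euclidean distances of 0.06 to 0.135 among 8486 candidates. Mga, for example, had log2 ratios of 0.70, 0.83, 0.89 and 1.115 at 2, 6, 12 and 24 h. The longest transcripts of these 4 genes had 3714 to 13931 bases. For Nfkbib, the member with the lowest ratio, they were Eif2s2, Dalrd3, Kctd1 and Ppp1r14b, with distances of 0.08 to 0.10. Eif2s2 had log2 ratios of -0.26, -0.36, -0.67 and -0.75 at the same times.

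The rest of the pathway was described from lists of receptors, upstream kinases and adaptors, feedback regulators and target genes. Among 13 receptors that feed the pathway, 8 were compared, and Tlr9, an endosomal receptor for DNA, was called higher at 2, 6, 12 and 24 h, where 0.904%, 1.57%, 2.33% and 2.86% of genes were. It was at 57.1 CPM in vehicle and at 126, 122, 124 and 157 CPM at these times, with a log2 ratio of 1.46 at 24 h (1.38 to 1.53; adjusted 1.45); at 6 h the adjusted ratio, 0.99, was below the threshold. The list's median at 24 h was 0.02, against 0.00 over all compared genes. Ltbr, a receptor of the noncanonical route, had the lowest ratio at 24 h, -0.43 (adjusted -0.17), and the costimulatory receptor Cd40, which is also on the target list, was at 38.0 CPM at 24 h against 47.2 CPM in vehicle, a log2 ratio of -0.31 (adjusted -0.25).

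Of 26 upstream kinases and adaptors 25 were compared, and 0 were called at any time over vehicle, where 1.33%, 1.94%, 3.07% and 4.09% of all compared genes were. The list's median log2 ratio was 0.14, 0.13, 0.19 and 0.17 at 2, 6, 12 and 24 h, or 0.10, 0.09, 0.11 and 0.08 when adjusted. In the I-kappa-B kinase complex, the catalytic Chuk was at 129 CPM at 24 h against 93.8 CPM in vehicle (log2 ratio 0.46, adjusted 0.53). Its partner kinase Ikbkb was at 122 CPM at 24 h against 116 CPM in vehicle (0.08, adjusted -0.11). The scaffold Ikbkg was at 38.3 CPM at 24 h against 24.9 CPM in vehicle (0.62, adjusted 0.24). Map3k14, the kinase that drives Nfkb2 processing, was at 40.9 CPM at 24 h against 34.8 CPM in vehicle (0.23, adjusted 0.18), and Traf3, which promotes its degradation, was at 56.4 CPM at 2 h against 35.2 CPM in vehicle (0.68, adjusted 0.20). At 24 h Traf3 was at 43.5 CPM (0.30, adjusted -0.14), so that its direction there turns with the adjustment. The extremes of the list at 24 h were Tab3 (0.63, adjusted 0.32) and Sharpin (-0.48, adjusted -0.28). Tab3 was at 7.75 CPM in vehicle and 12.0 CPM at 24 h, and met the minimum of 10 CPM only through the treated libraries. Of 25 tested for a slope, 1 passed, where 9.41% of all genes did: Ripk1, rising (0.11, edgeR adjusted p = 0.0434).

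Of 17 feedback regulators outside the 9 members 12 were compared, and 0 were called over vehicle, where 1.33% to 4.09% of all compared genes were. Bcl3, an atypical I-kappa-B protein of the nucleus, was at 27.5 CPM in vehicle, 20.3 CPM at 2 h, 16.1 CPM at 6 h, 14.9 CPM at 12 h and 14.8 CPM at 24 h. It had the lowest ratio of the list at 24 h, -0.89 (-1.05 to -0.75; adjusted -0.55), and fell in the slope test (-0.20, edgeR adjusted p = 0.0235). Otud7b, a deubiquitinase of Traf3, had the highest, 0.77 (adjusted 0.24), and it and Itch, a ubiquitin ligase that works with the Tnfaip3 product, rose in the slope test (edgeR adjusted p of 0.0366 and 0.0283). The slope test thus passed 2 rising and 1 falling of 17 tested, where 5.35% of all genes rose and 4.05% fell. The deubiquitinase Cyld was at 95.7 CPM at 24 h against 72.2 CPM in vehicle (0.41, adjusted -0.05), and Tnip1, a partner of the Tnfaip3 product, at 56.1 against 69.5 CPM (-0.31, adjusted -0.195). Nfkbiz, another atypical I-kappa-B gene, stayed at 3.47 to 4.39 CPM, under the minimum for comparison.

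Of 40 target genes 18 were compared; many inflammatory ones, Il6, Il1b, Il12b and Ccl3 among them, stayed under 1 CPM. Tnf was at 2.74 CPM at 24 h against 2.84 CPM in vehicle. Over vehicle 0 of 18 were called lower at 2 and 6 h, 1 at 12 h and 2 at 24 h, where 0.43%, 0.373%, 0.746% and 1.23% of genes were, and the list's median at 24 h was -0.07, or 0.09 when adjusted, so that its direction turns with the adjustment. The called genes were Bcl2a1a, at 29.7 CPM at 24 h against 63.9 CPM in vehicle (-1.11, adjusted -0.69), and Bcl2a1b, at 35.9 against 71.9 CPM (-1.001, adjusted -0.58), pro-survival genes whose near-identical copies make the split of reads between them uncertain. When adjusted, 0 targets were called at 24 h, and with DESeq2 size factors or total counts 1 was. Of 29 targets tested for a slope, 4 fell, where 4.05% of all genes did (edgeR adjusted p of 0.0181 to 0.0358). They were Bcl2a1a, Bcl2a1b, Bcl2a1d and Ebi3, a cytokine subunit under the minimum for comparison. The near-identical Bcl2a1 copies are not separate observations, either in this count or among the genes called lower at 24 h. These counts therefore cannot be read as an excess over the shares of all genes. Birc3, an inhibitor of apoptosis that NF-kB induces, was at 59.9 CPM at 24 h against 67.6 CPM in vehicle, and Traf1, an adaptor that NF-kB induces, at 2.34 against 4.67 CPM, under the minimum. The highest target at 24 h was Stat5a (0.66, adjusted 0.63).

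**Figure D5:**
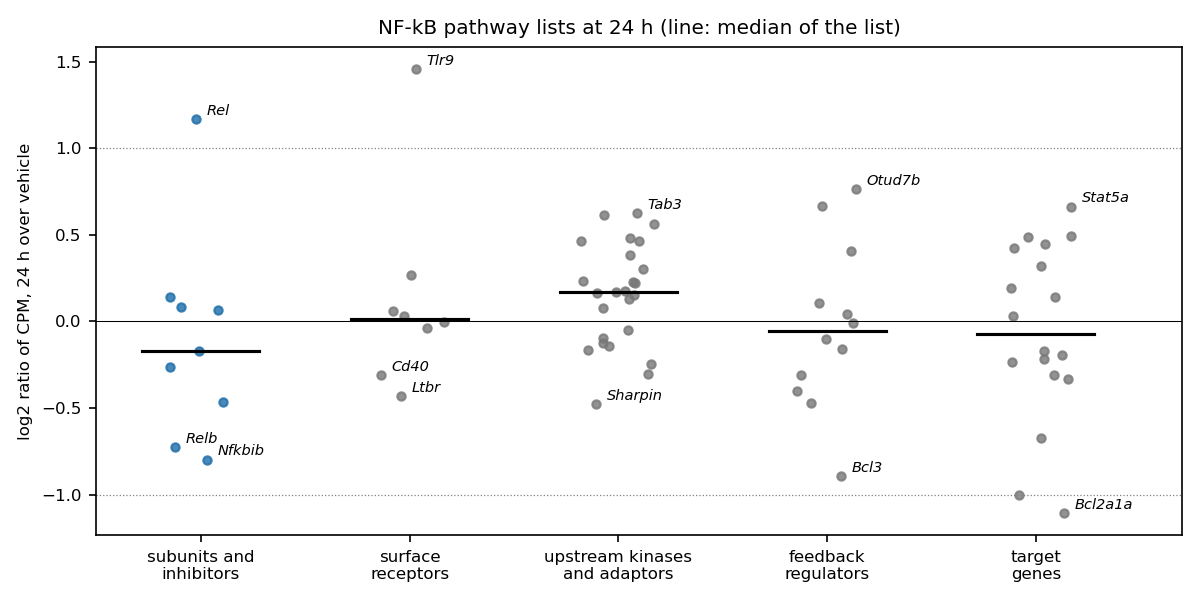
Log2 ratios of CPM at 24 h over vehicle (vertical axis) of the 9 members (blue) and of the compared genes of 4 pathway lists (grey), with each list's median as a line and dotted lines at 1 in size. Rel and Tlr9 lie above the upper dotted line and Bcl2a1a (-1.11) and Bcl2a1b (-1.001) below the lower one; the list medians lie between -0.17 and 0.17.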

How the data were processed

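The deposited values are raw counts, 1 row per gene. Per the submitters' processing notes, Trim Galore and HISAT2 were used with GRCm38; for versions, the counting program and its strand setting: not given in the sources used here. Per the labels' protocols, poly-A RNA went into TruSeq libraries, which do not mark strand. Counts (33568526 to 42854511 per library) were scaled with TMM factors (edgeR 4.0.16, R 4.3.3), and log2 CPM used a prior count of 2. TPM was computed from counts and lengths without TMM factors. Genes with at least 10 CPM in 1 library were compared. Intervals are exact binomial (95%), reflect counting error alone, and PCR copies are not independent molecules. Adjusted ratios subtract smooth terms for length and GC content (mgcv 1.9.3), which came from GENCODE M21 on GRCm38 (99.9% of compared genes matched). The slope test used filterByExpr, 3 residual degrees of freedom and Benjamini-Hochberg adjustment over all genes, without the length and GC adjustment. DESeq2 1.42.0 was an alternative. Scripts were tested on simulated data. Where a symbol had several entries, the one with the most counts was used. With 1 library per time, p-values measure only the scatter of single libraries around a line. Named genes were the 9 members, list genes called over vehicle, each list's extremes at 24 h, 13 fixed names (Map3k14, Ikbkb, Chuk, Ikbkg, Bcl3, Nfkbiz, Cyld, Tnip1, Traf3, Birc3, Traf1, Cd40 and Tnf) and the 4 genes nearest in pattern to the members with the highest and the lowest ratio at 24 h; other genes are named because they form a small count, picked with their values in view. The members and lists were chosen with earlier results of these data known.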

Additional observations from a re-analysis of the deposited data

Results flagged for a closer look

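Relb stood apart among the members because its ratio over vehicle pointed one way at 2 h and the other way later, with both counting intervals excluding 0. Its log2 ratio was 0.24 at 2 h and -0.61 at 12 h, a difference of -0.848. Between 24 h (-0.72) and 2 h the difference was -0.962. The difference between these ratios was not tested as such, with 1 library per time; the slope over the treated times is given with the slope tests, and the adjusted ratio at 2 h, 0.12, had an interval that included 0.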

How the results depend on the processing

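Of the calls over vehicle, the 1 member called at 24 h (Rel) became 0 with the length and GC adjustment, and the counts of 0 at 2, 6 and 12 h over vehicle and between treated libraries stayed at 0 under each alternative. The other pathway genes called were 1, 1, 2 and 3 at 2, 6, 12 and 24 h. Of all compared genes, 1.33%, 1.94%, 3.07% and 4.09% were called at these times. The lists held 8 receptors, 25 kinases and adaptors, 12 feedback regulators and 18 targets compared. The adjustment gave 0, 1 and 1 for 6, 12 and 24 h, where 1.02%, 1.9% and 2.64% of genes were called. With no filter the calls were 5, 3, 5 and 10, and a 1 CPM filter gave 6 at 24 h. The added genes are low in counts, since only the filter differed. The share of all genes called under these filters is not given here, so the rise is not a result about the pathway. The 2 members past the slope threshold became 0 on a scale of plain hours, 4 with the treated libraries only (Nfkb2 and Relb added), 4 with DESeq2 (Nfkbia and Relb added) and 0 with no filter; leaving out 1 library at a time gave 0 to 4. Across all genes the slope test called 1309 in the main setting, 0 on plain hours, 0 without the 12 h library, 28 without the 24 h library, 509 without the 6 h library, 2205 without the 2 h library, 2177 without the vehicle library, 1887 with the treated libraries only, 0 with no filter and 2351 with DESeq2. Genes tested were 13915 in the main setting, 13764 with the treated libraries only and 11049 with DESeq2. The cause of these shifts was not tested. Of the members' ratios and the list counts, 33 of 88 moved past their counting interval or count range with the adjustment, 15 with total counts only and 1 with DESeq2 size factors. The length of all exons together, chosen after seeing the data, moved 6 of 9 median levels. No paired analysis was possible because each time has 1 library. With 319 counts for Tnfaip3 in vehicle, its intervals were the widest of the members.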
